A study of Mus musculus with 13 samples.

Results

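Zeb2, Prdm1 and Klrg1, 3 genes tied to the terminal effector state of CD8+ T cells, were followed through single cells of 13 populations from naive to memory. They were taken by name from the 94 genes of a quantitative PCR panel, all 3 were present, and each was described in all 1449 cells. Zeb2 was above 0 in 267 cells (18.4%), Klrg1 in 124 (8.56%) and Prdm1 in 77 (5.31%).

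CD8+ T cells that meet an infection divide and spread over fates that run from short-lived killers to memory cells. Zeb2 encodes a zinc-finger repressor that binds E-box-like sequences and is needed for full terminal differentiation of effector cells. Prdm1 encodes Blimp-1, a transcriptional repressor that drives effector differentiation and restrains memory traits, and Klrg1 encodes an inhibitory lectin-like receptor by which short-lived effector cells are commonly recognised.

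The study asked how early such fates can be told apart in single mouse T cells responding to Listeria monocytogenes that expresses ovalbumin. OT-1 cells carrying CD45.1, whose transgenic receptor sees an ovalbumin peptide, were moved into wild-type C57BL/6J recipients carrying CD45.2, which were given 5000 colony-forming units into a vein, and spleen cells were sorted after staining for CD8 and CD44 and for CD4, CD11b, CD11c and F4/80. The responders were cells after the first division at day 2 (from 2000000 transferred cells labelled with CFSE), unsorted cells at day 3 (20000 transferred), and unsorted, Tsle and Tmp cells at days 5 and 7 as well as Tem and Tcm cells at day 45 (5000 transferred). Tsle stands for short-lived effector, Tmp for memory precursor, Tem for effector memory and Tcm for central memory cells. The proximal and the distal daughter cells of that division at day 2, and unactivated naive OT-1 CD45.1+ cells at day 0, completed the set, with no number transferred given for these 3. Neither the gates of the sorted populations nor the number of mice is stated in what was read here, so KLRG1 protein may have been a gate between Tsle and Tmp. A recipient's response to 2000000, 20000 or 5000 cells cannot be told apart from the day of sampling in comparisons across those populations.

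Each population was 1 sample of 48 to 154 cells, and cells are not replicates, so no test was run and no p-value is given. A share is the percentage of cells with a value above 0, and the range in brackets after it is an exact (Clopper-Pearson) 95% interval, which covers counting error only. For a transcript found in no cell, the limit given is the share that 3 cells would make. The deposited values run with the amount of RNA on the scale of PCR cycles (log2), with 0 for no detection. They were read as 40 minus Ct, with the 40 taken from the data and not stated by the authors. Differences in share of at least 20 percentage points were counted over all 95 assay rows, and the percentage of rows that far apart is given beside the members.

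Of 4 measured markers expected in these cells, Ptprc, which encodes the leukocyte antigen CD45, was above 0 in 94.3% of cells, the T cell antigen gene Thy1 in 38.4% and Cd8a, the marker of the CD8 lineage, in 48.0%. Cd44, the fourth, was above 0 in 47 of 1449 cells (3.24%). Markers of other T cells were above 0 in few cells: Cd4 and Foxp3 had 2 cells each (0.138%) and Gata3 had 53 (3.66%). None of the genes listed as markers of natural killer, B or myeloid cells was on the panel. A cell had a median of 11 assays above 0 in Tem and up to 19 in unsorted day 5 cells. No 2 cells had identical values. The columns of each population were also split by file order into an earlier and a later part of equal size, because the height of single assays differed between such stretches. Whether those stretches are separate arrays is not stated.

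Promoter windows were looked up for the members in a RefSeq table of assembly GRCm38.p6, each running from 250 bases before to 50 after a transcript start, and 2 of the 3 genes matched, Zeb2 with several starts and Prdm1. The most upstream Zeb2 window (chr2:45117393-45117692, minus strand) and the Prdm1 window (chr10:44458699-44458998, minus strand) are printed because ZEB2 protein is known to bind CACCT. Capitals mark CACCT or its reverse complement AGGTG, the only motif searched, on both strands.
Zeb2: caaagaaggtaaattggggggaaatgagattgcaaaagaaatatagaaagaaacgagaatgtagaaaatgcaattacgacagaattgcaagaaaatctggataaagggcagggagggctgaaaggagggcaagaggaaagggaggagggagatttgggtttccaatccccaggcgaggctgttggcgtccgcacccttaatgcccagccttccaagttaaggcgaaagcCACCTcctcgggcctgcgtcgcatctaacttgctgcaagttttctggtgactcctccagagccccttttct
Prdm1: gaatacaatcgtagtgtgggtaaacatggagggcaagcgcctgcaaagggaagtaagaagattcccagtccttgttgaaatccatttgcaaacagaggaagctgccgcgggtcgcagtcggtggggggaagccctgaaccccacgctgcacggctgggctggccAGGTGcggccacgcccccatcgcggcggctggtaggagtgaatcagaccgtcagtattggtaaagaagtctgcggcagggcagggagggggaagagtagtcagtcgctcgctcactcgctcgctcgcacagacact
The match began 21 bases before the start in the Zeb2 window and 86 bases before it in the Prdm1 window. Such a match stood in 4 of the 5 windows of the members, of which 2 Zeb2 windows overlap and hold the same AGGTG. It stood in 17061 of all 32851 windows (51.9%), so it is common, and it describes letters, not a bound site.

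Zeb2 was nearly absent before day 5 and then found in about as many as 1 in 2 cells. It had 2 of 149 naive cells (1.34%), 6 of 144 first-division cells (4.17%), 2 of 83 proximal cells (2.41%), 1 of 48 distal cells (2.08%) and 8 of 143 day 3 cells (5.59%, 2.45 to 10.7%). Unsorted cells at day 5 had it in 49 of 154 (31.8%, 24.6 to 39.8%), and unsorted cells at day 7 in 58 of 134 (43.3%, 34.8 to 52.1%). The interval at day 3 lay below both later ones, while those of days 5 and 7 overlapped.

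Within a day, Zeb2 was found more often in Tsle than in Tmp cells. At day 5 it was above 0 in 28 of 79 Tsle cells (35.4%, 25.0 to 47.0%) and 14 of 90 Tmp cells (15.6%, 8.77 to 24.7%). At day 7 it was above 0 in 43 of 89 Tsle cells (48.3%, 37.6 to 59.2%) and 12 of 62 Tmp cells (19.4%, 10.4 to 31.4%). The intervals did not overlap on either day. The day 5 difference of 19.9 points was uneven: the earlier columns held 25.6% in Tsle and 22.2% in Tmp, while the later ones held 45.0% in Tsle and 8.89% in Tmp. At day 7 Tsle exceeded Tmp in both parts, with 54.5% against 22.6% in the earlier part and 42.2% against 16.1% in the later part.

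Memory cells kept the same order of subsets. Zeb2 was above 0 in 33 of 136 Tem cells (24.3%, 17.3 to 32.4%) and 11 of 138 Tcm cells (7.97%, 4.05 to 13.8%). Tem cells had fewer assays above 0 than Tcm cells (median 11 against 17), and Actb, a cytoskeletal reference transcript, was lower in them as well (median value 17.1 against 21.0). Of the 95 rows, 0% were at least 20 points higher in Tem than in Tcm and 12.6% at least 20 points lower. Zeb2, at 16.3 points higher, had the largest positive difference of all rows in that pair.

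**Figure D1:**
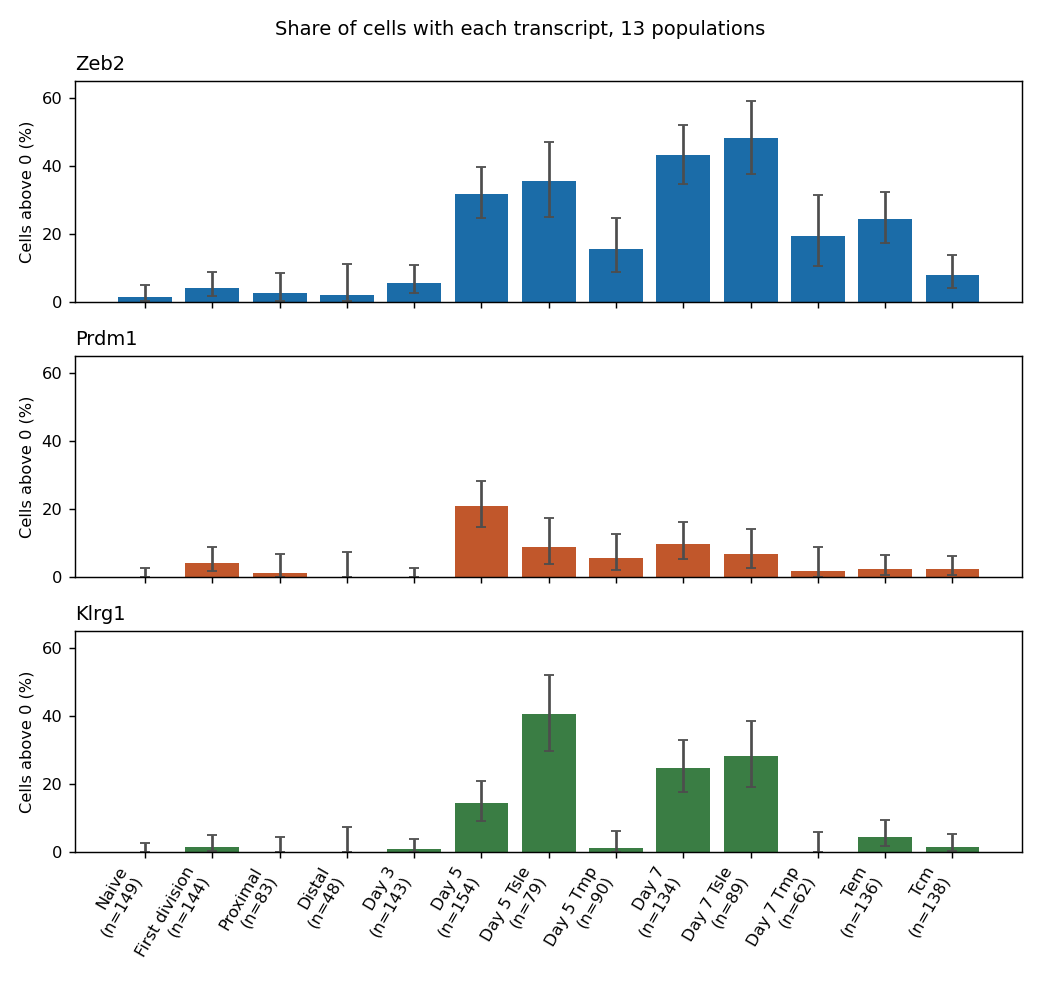
Share of cells above 0 (%) for Zeb2, Prdm1 and Klrg1 in the 13 populations, with the number of cells under each name. Bars are shares and whiskers exact 95% intervals for counting error. Zeb2 reaches 48.3% in day 7 Tsle cells, Prdm1 20.8% in unsorted day 5 cells and Klrg1 40.5% in day 5 Tsle cells.

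From the highest share down, Zeb2 ran through day 7 Tsle, unsorted day 7, day 5 Tsle, unsorted day 5, Tem, day 7 Tmp, day 5 Tmp, Tcm, day 3, first-division, proximal, distal and naive cells. The intervals of all 12 neighbouring pairs in that order overlapped, and the same held for the orders of Prdm1 and Klrg1. Such overlap does not show that a step is within counting error. Between unsorted days 7 and 5, neighbours in both of those orders, an interval was built for the difference from the 2 exact intervals. It was -19.6 to -2.29 points for Prdm1 and 0.74 to 19.99 points for Klrg1.

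The median value of Zeb2 in cells that had it lay between 14.2 and 15.9 cycles in every population from day 3 on. In unsorted cells the lowest, median and highest values were 13.2, 14.2 and 17.0 at day 3, 12.4, 15.8 and 19.8 at day 5, and 12.4, 15.3 and 18.4 at day 7. Day 5 cells gave 14.6, 15.9 and 18.4 in Tsle and 11.5, 14.9 and 15.8 in Tmp. Day 7 cells gave 13.3, 15.6 and 17.6 in Tsle and 14.01, 15.8 and 18.3 in Tmp. The medians of these Tsle and Tmp cells were thus within 1 cycle of each other, and 1 cycle is a factor of 2 in amount. Cycles are a log scale and shares are not, so their spreads were not compared. Tem cells had 1.95, 14.6 and 16.2, and Tcm cells 13.2, 15.0 and 16.4. The 2 naive cells were at 6.44 and 7.82, below every day 3 to day 7 value, and only 5 of the 267 values of Zeb2 (1.87%) lay at or below 12, which is Ct 28.

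Zeb2 differed by at least 20 points in 6 of 14 pairs of populations. It was higher by 30.5 points at day 5 than in naive cells, where 12.6% of rows were higher by that much and 4.21% lower. It was higher by 41.9 points at day 7 than in naive cells (10.5% of rows higher, 3.16% lower) and by 22.9 points in Tem than in naive cells (3.16% higher, 7.37% lower). These comparisons share their naive cells. It was also higher at day 5 than at day 3 (26.2 points, beside 12.6% of rows higher and 9.47% lower) and higher in day 7 Tsle than in day 7 Tmp (29.0 points, beside 3.16% higher and 2.11% lower). In Tem cells it was lower than in day 7 Tsle cells (-24.0 points, beside 1.05% of rows higher and 4.21% lower). Between day 7 Tsle and Tmp its difference was the largest positive one of all rows.

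Prdm1 had a narrower window, with most of its cells at day 5. It was above 0 in 0 of 149 naive cells (up to 2.01%), 6 of 144 first-division cells (4.17%, 1.54 to 8.85%), 1 of 83 proximal cells (1.20%), 0 of 48 distal cells (up to 6.25%) and 0 of 143 day 3 cells (up to 2.10%). It was found in 32 of 154 unsorted cells at day 5 (20.8%, 14.7 to 28.0%) and 13 of 134 at day 7 (9.70%, 5.27 to 16.0%). The share at day 5 was 20.8% in either part of the columns.

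The share of cells with Prdm1 was lower in each sorted population than in unsorted cells of the same day, but at day 7 the later columns gave 11.1% of Tsle (5 of 45) and 7.46% of unsorted cells (5 of 67). At day 5, Prdm1 was above 0 in 7 of 79 Tsle cells (8.86%, 3.64 to 17.4%) and 5 of 90 Tmp cells (5.56%, 1.83 to 12.5%), and at day 7 in 6 of 89 Tsle cells (6.74%, 2.51 to 14.1%) and 1 of 62 Tmp cells (1.61%). The interval of unsorted day 5 cells lay above that of day 5 Tmp cells and overlapped that of day 5 Tsle cells, and the 3 intervals at day 7 overlapped. The number of assays above 0 had a median of 17 in day 5 Tsle, 16 in day 5 Tmp and 19 in unsorted day 5 cells, and its part in this was not tested. Memory cells had Prdm1 in 3 of 136 Tem (2.21%) and 3 of 138 Tcm cells (2.17%).

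Prdm1 was 20.8 points higher at day 5 than in naive cells (12.6% of rows at least 20 points higher, 4.21% lower). It was also 20.8 points higher at day 5 than at day 3 (12.6% of rows higher, 9.47% lower). In both pairs its difference ranked 12 from the highest of 95 rows. Prdm1 reached 20 points in no other pair. All its values were above 12. The lowest, median and highest were 12.2, 16.2 and 17.6 in unsorted cells at day 5 and 13.7, 16.2 and 21.7 at day 7. They were 14.6, 15.0 and 15.7 in day 5 Tsle cells, 13.7, 16.2 and 16.6 in day 5 Tmp cells and 12.6, 13.9 and 14.4 in day 7 Tsle cells. At day 7 the unsorted median was 16.9 in 8 cells of the earlier columns and 13.8 in 5 cells of the later ones, so its height differed at least as much within that population as between populations.

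Klrg1 was also a transcript of days 5 and 7. It was above 0 in 0 of 149 naive (up to 2.01%), 2 of 144 first-division (1.39%), 0 of 83 proximal (up to 3.61%), 0 of 48 distal (up to 6.25%) and 1 of 143 day 3 cells (0.699%). Unsorted cells had it in 22 of 154 at day 5 (14.3%, 9.17 to 20.8%) and 33 of 134 at day 7 (24.6%, 17.6 to 32.8%). At day 7 the share was 32.8% in the earlier part of the columns and 16.4% in the later part.

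Among sorted cells Klrg1 was nearly confined to Tsle, which describes the sort if KLRG1 was a gate and is then no finding. At day 5 it was above 0 in 32 of 79 Tsle cells (40.5%, 29.6 to 52.1%) and 1 of 90 Tmp cells (1.11%, 0.0281 to 6.04%), and at day 7 in 25 of 89 Tsle cells (28.1%, 19.1 to 38.6%) and 0 of 62 Tmp cells (up to 4.84%). More than 1 in 2 Tsle cells gave no Klrg1 transcript on either day. By day 45, Klrg1 remained above 0 in 6 of 136 Tem cells (4.41%, 1.64 to 9.36%) and 2 of 138 Tcm cells (1.45%, 0.176 to 5.14%).

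Klrg1 differed by at least 20 points in 4 of the 14 pairs. It was 24.6 points higher at day 7 than in naive cells (10.5% of rows at least 20 points higher, 3.16% lower). In day 5 Tsle it was 39.4 points higher than in day 5 Tmp (2.11% of rows higher, 3.16% lower). In day 7 Tsle it was 28.1 points higher than in day 7 Tmp (3.16% higher, 2.11% lower). In Tem it was lower than in day 7 Tsle (-23.7 points, beside 1.05% of rows higher and 4.21% lower). In the later columns alone only the day 5 Tsle pair still reached 20 points, and with values counted only above 12 only day 7 against naive did. Between Tem and day 7 Tsle, Klrg1 and Zeb2 were 2 of the 4 rows that were at least 20 points lower, while Prdm1 differed by -4.54 points.

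Klrg1 values were low and uneven, unlike those of Zeb2. Of its 124 values 63 (50.8%) lay at or below 12. The lowest, median and highest were 6.91, 11.0 and 13.5 in day 5 Tsle cells, against 9.43, 13.7 and 17.3 in unsorted day 5 cells. They were 7.02, 11.1 and 14.01 in day 7 Tsle cells, against 6.92, 15.2 and 22.7 in unsorted day 7 cells. The value of 22.7 came from the same cell as the highest Prdm1 value, 21.7. Both lay above the Actb (19.4) and Gapdh (16.9) values of that cell. Tsle cells, in which the transcript was found more often, thus had the lower median on both days.

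That height also moved within populations. Among unsorted day 5 cells the Klrg1 median was 11.8 (earlier) and 15.9 (later columns), and among unsorted day 7 cells 15.7 in the earlier and 12.6 in the later columns. Day 5 Tsle cells had 11.1 and 11.0, and day 7 Tsle cells 10.04 and 12.1. Of the reference transcripts in unsorted cells, Actb had medians of 20.7 and 21.1 at day 5 and 19.9 and 20.9 at day 7 in the earlier and later columns, and Gapdh 14.6 and 16.3 at day 5 and 14.3 and 14.8 at day 7. Zeb2 had a median of 15.8 in both parts of the unsorted day 5 cells. Other assays shifted too: at day 5, of 54 assays with enough detected cells, the median shift was 1.32 cycles upward in the later columns, with 7 at least 3 cycles higher and 0 at least 3 lower, and at day 7, of 53 assays, 4 were higher and 4 lower.

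With values counted only above 12, the order of Klrg1 turned. It was then found in 28 of 134 unsorted day 7 cells (20.9%), 14 of 154 unsorted day 5 cells (9.09%), 7 of 89 day 7 Tsle cells (7.87%), 5 of 136 Tem cells (3.68%) and 2 of 79 day 5 Tsle cells (2.53%). The share in Tsle was below that in unsorted cells on both days at this limit, and above it on both days at a limit of 0. Zeb2 and Prdm1 shares were almost untouched by the same change.

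**Figure D2:**
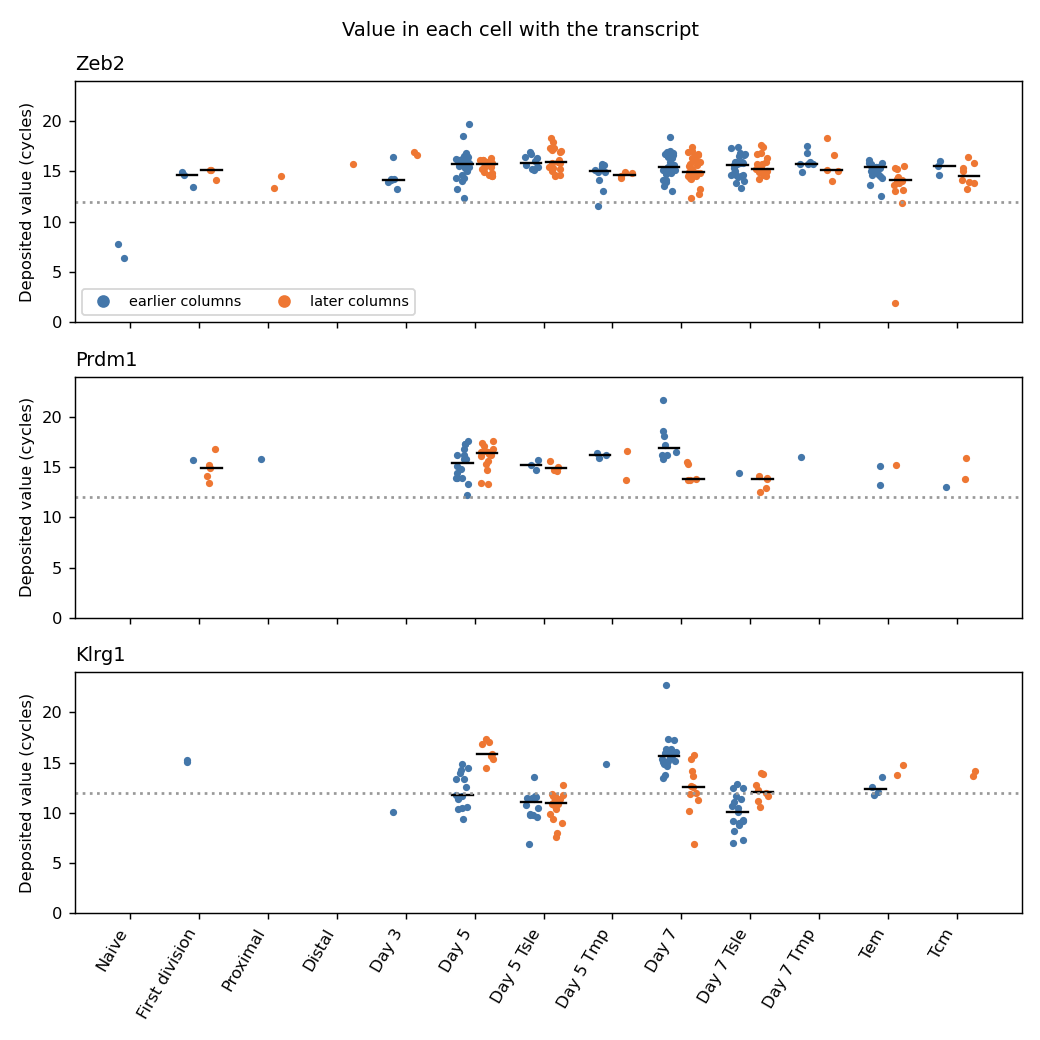
Deposited value (cycles, higher is more RNA) of each cell with the transcript, for Zeb2, Prdm1 and Klrg1 in the 13 populations, with points for cells of the earlier and later columns, short lines for medians of at least 3 cells and a dotted line at 12. Zeb2 stays near 15 from day 3 on, whereas the Klrg1 medians of unsorted day 5 cells are 11.8 in the earlier and 15.9 in the later columns.

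In the remaining pairs no member reached 20 points. These were first-division against naive (10.5% of rows at least 20 points higher and 3.16% lower), proximal against distal (8.42% and 0%), day 3 against naive (9.47% and 3.16%), Tcm against naive (10.5% and 1.05%), day 7 against day 5 (0% and 5.26%) and Tcm against day 7 Tmp (6.32% and 0%), besides Tem against Tcm, given above. Between days 7 and 5, Zeb2 and Klrg1 were 11.5 and 10.3 points higher at day 7 and Prdm1 differed by -11.1 points. Among unsorted cells Prdm1 had its highest share at day 5, and Zeb2 and Klrg1 had theirs at day 7. The intervals of days 5 and 7 overlapped for each of them.

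Most cells with any of the 3 transcripts had 1 alone. Of 1449 cells, 382 (26.4%) had any of them, 303 had 1, 72 had 2 and 7 had all 3. Zeb2 stood alone in 196 of its 267 cells, Klrg1 in 62 of its 124 and Prdm1 in 45 of its 77, while Zeb2 went with Klrg1 in 47 cells, with Prdm1 in 17, and Prdm1 with Klrg1 in 8. The cells with all 3 were 3 unsorted day 5 cells, 2 day 5 Tsle cells and 2 unsorted day 7 cells, and none was found in day 7 Tsle cells (0 of 89, up to 3.37%).

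The share of cells with at least 1 member was highest in day 7 Tsle cells. At least 1 was found in 61 of 89 day 7 Tsle cells (68.5%, 57.8 to 78.0%) and 12 of 62 day 7 Tmp cells (19.4%, 10.4 to 31.4%), and in 49 of 79 day 5 Tsle cells (62.0%, 50.4 to 72.7%) and 19 of 90 day 5 Tmp cells (21.1%, 13.2 to 31.0%). Unsorted cells had at least 1 in 77 of 154 at day 5 (50.0%, 41.8 to 58.2%) and 81 of 134 at day 7 (60.4%, 51.6 to 68.8%). Tem cells had at least 1 in 40 of 136 (29.4%, 21.9 to 37.8%) and Tcm cells in 15 of 138 (10.9%, 6.21 to 17.3%). In Tem cells 31 of the 40 had Zeb2 alone. Where KLRG1 was a gate, the Klrg1 part of these sums in Tsle and Tmp cells describes the sort.

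**Figure D3:**
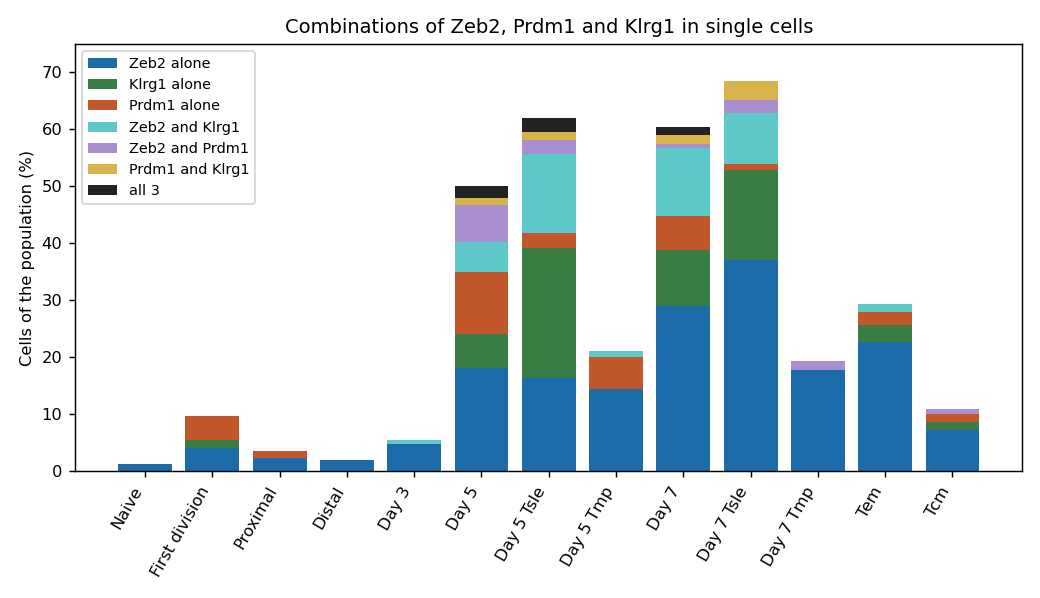
Percentage of cells of each population with each combination of Zeb2, Prdm1 and Klrg1, stacked so that the full bar is the share with at least 1. From day 5 on, Zeb2 alone is the largest band in each population except day 5 Tsle, where Klrg1 alone is larger (18 against 13 cells). All 3 together are found in 3 unsorted day 5, 2 day 5 Tsle and 2 unsorted day 7 cells.

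Zeb2 and Klrg1 were found in the same cell in 11 unsorted cells at day 5, where the product of their shares gives 7.00, and in 18 at day 7, where it gives 14.3. Day 5 Tsle cells had 13 such cells and a product of 11.3. Day 7 Tsle cells had 8 such cells and a product of 12.1. In these day 7 Tsle cells Zeb2 was above 0 in 8 of 25 cells with Klrg1 (32.0%, 14.9 to 53.5%) and 35 of 64 cells without it (54.7%, 41.7 to 67.2%). In unsorted day 7 cells the direction was the other one, with Zeb2 in 18 of 33 cells with Klrg1 (54.5%, 36.4 to 71.9%) and 40 of 101 without it (39.6%, 30.01 to 49.8%). Each of these pairs of intervals overlapped. The day 7 Tsle value leaned on the later columns, where 0 of 8 cells with Klrg1 and 19 of 37 without it had Zeb2, against 8 of 17 with and 16 of 27 without in the other part. Unsorted cells with both transcripts had a median of 22 assays above 0 at day 5, against 19 in all. At day 7 these medians were 18 and 17. In Tsle cells they were 18 and 17 at day 5, and 15.5 and 13 at day 7. They count the members themselves, and their part in the shared cells was not tested.

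Prdm1 was found beside the other members about as often as the product of shares gives. With Zeb2 it shared 13 cells at day 5 (product 10.2), 3 at day 7 (5.63), 4 in day 5 Tsle (2.48) and 2 in day 7 Tsle (2.90). With Klrg1 it shared 5 cells at day 5 (4.57), 4 at day 7 (3.20), 3 in day 5 Tsle (2.84) and 3 in day 7 Tsle (1.69). Summed over the 13 populations, Zeb2 and Klrg1 shared 54 cells (46.6), Zeb2 and Prdm1 24 (23.4), and Prdm1 and Klrg1 15 (12.6). Unsorted day 5 cells had a median of 23 assays above 0 with Zeb2 and Prdm1, 24 with Prdm1 and Klrg1, and 19 in all. At day 7 these medians were 18, 21.5 and 17. In Tsle cells they were 18, 18 and 17 at day 5, and 14.5, 11 and 13 at day 7. The product of shares takes no account of this number, and its part was not tested.

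**Figure D4:**
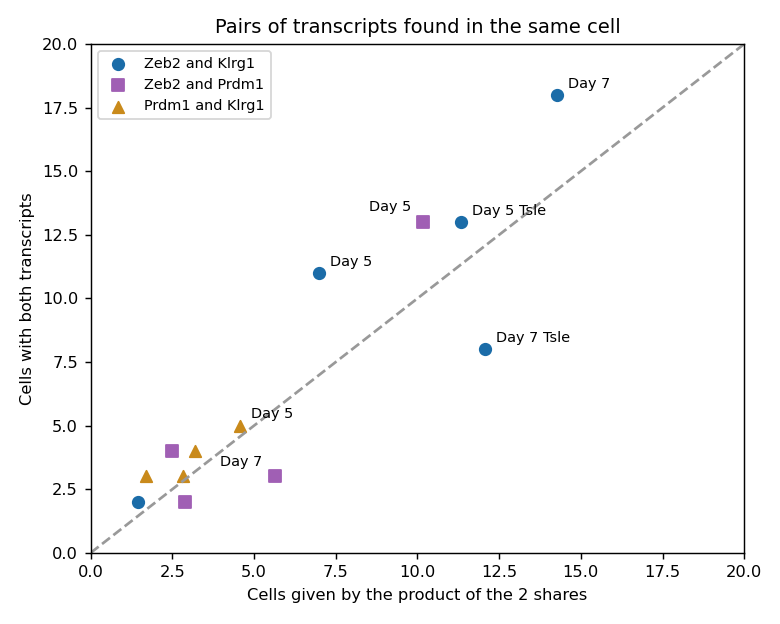
Number of cells with both transcripts against the number given by the product of their shares, for pairs of Zeb2, Prdm1 and Klrg1 in each population where that product is at least 1. The dashed line marks equal numbers. The product takes no account of how many assays were above 0 in each cell. Zeb2 with Klrg1 lies above it in unsorted day 7 cells (18 against 14.3) and below it in day 7 Tsle cells (8 against 12.1).

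Across the 13 populations, the genes whose shares followed each member most closely were found among 83 genes above 0 in at least 10 cells. Pearson's r describes these 13 points, which share each population's depth, and carries no p. The share of Zeb2 was most like that of Klrg1 (0.84), followed by Lgals1 (0.79), which encodes galectin-1, and Ccl5 (0.78), a chemokine made by effector and memory T cells. The share of Klrg1 was most like those of Zeb2 (0.84), Hopx (0.83) and the transcription factor Runx1 (0.77), although Hopx was found in at most 6.33% of cells of any population. Where KLRG1 was a gate, the Tsle and Tmp points of Klrg1 describe the sort. How far those points set any r or rho of Klrg1 was not tested. Prdm1 was most like Ifngr1 (0.78), a chain of the interferon-gamma receptor, Runx2 (0.77) and Lgals1 (0.77). The order depended on the measure: by Spearman's rho Zeb2 was most like Runx1 (0.87, against 0.85 for Klrg1). By rho Prdm1 was most like Lgals1 (0.90) and Klrg1 (0.85), with Runx2 at 0.72 and Ifngr1 at 0.62, and Klrg1 was most like Zeb2 and Prdm1 (both 0.85), with Hopx at 0.77.

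Tcf7, which encodes the memory and stem-like factor TCF-1, had the lowest r with all 3 members, at -0.91 with Zeb2, -0.85 with Klrg1 and -0.72 with Prdm1. By rho it was lowest for Prdm1 (-0.82) and tied for lowest for Klrg1 (-0.75), while Myc (-0.87) and Ccr7 (-0.86) lay below it for Zeb2 (-0.85). Tcf7 was above 0 in 0 of 79 day 5 Tsle cells (up to 3.80%) and 38.9% of day 5 Tmp cells, in 3.37% of day 7 Tsle cells and 41.9% of day 7 Tmp cells, and in 47.8% of Tem and 71.7% of Tcm cells. It thus ran opposite to Zeb2 in all 3 pairs of subsets.

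A list of 26 genes of the effector programme, 16 of them on the panel, moved with Zeb2 only in part. Between day 5 Tsle and Tmp, 1 of the 16 was at least 20 points higher, Ccl5 (94.9% against 74.4%), and 1 lower, Id2 (0 of 79 cells, up to 3.80%, against 58.9%), a factor usually tied to effector cells. Over all rows 2.11% were higher and 3.16% lower, and the median was 2.13 points over the list and 0 over all rows. Id2 was listed at 0% in unsorted day 5 cells too and stood at 5.62% in day 7 Tsle and 1.61% in day 7 Tmp cells, so its high share was in day 5 Tmp cells without a like share in unsorted cells of that day. Between day 7 Tsle and Tmp, 1 was higher, Lgals1 (85.4% against 59.7%), and 0 lower, with a median of 1.20 points beside 0 over all rows, of which 3.16% were higher and 2.11% lower. Between Tem and Tcm, 0 were higher and 1 lower, with a median of -1.07 points beside -2.15 over all rows, of which 0% were higher and 12.6% lower. Zeb2 was higher in each of these pairs, by 19.9, 29.0 and 16.3 points.

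A list of 16 genes of the naive and memory programme, 13 of them on the panel, was set beside the same pairs. Between day 5 Tsle and Tmp, 2 of the 13 were at least 20 points lower, Tcf7 and the costimulatory receptor Cd28 (24.1% against 55.6%), and 0 higher, with a median of -1.91 points, where 3.16% of all rows were lower and 2.11% higher with a median of 0. Eomes, a T-box factor of effector and memory cells, was at 34.2% in day 5 Tsle and 15.6% in day 5 Tmp. Between day 7 Tsle and Tmp, 1 was lower, Tcf7, and 0 higher, with a median of 0, as over all rows, of which 2.11% were lower and 3.16% higher. Between Tem and Tcm, 6 were lower and 0 higher, with a median of -7.62 points, where 12.6% of all rows were lower and 0% higher with a median of -2.15, and Tem cells had a median of 11 assays above 0 against 17.

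Cells of 1 population were then compared by whether they held a member, wherever both kinds numbered at least 20, which gave 10 comparisons of 94 other rows. In these, 12 differences of at least 20 points were higher and 5 lower in cells with the member. Cells with Zeb2 were set against cells without it in 5 populations, and 0% to 1.06% of rows differed that much in either direction. For Prdm1 at day 5, 2.13% were higher and 0% lower. For Klrg1, 1.06% to 4.26% were higher and 0% to 1.06% lower. Cxcr3, Ifngr1, Cd8a, Zfp281 and Psmb7 are in neither list and were chosen after their values were seen.

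Unsorted day 7 cells with Zeb2 rarely held Cxcr3, a chemokine receptor that guides T cells to inflamed tissue. Cxcr3 was above 0 in 9 of 58 cells with Zeb2 (15.5%, 7.35 to 27.4%) and 41 of 76 without it (53.9%, 42.1 to 65.5%). It was lower in both parts of the columns, at 14.8% against 60.0% in the earlier and 16.1% against 47.2% in the later ones. Tem cells showed the same direction, with 2 of 33 cells with Zeb2 (6.06%, 0.743 to 20.2%) and 30 of 103 without it (29.1%, 20.6 to 38.9%). In day 7 Tsle cells the shares were 20.9% with and 32.6% without, in day 5 Tsle cells 42.9% with and 45.1% without, and in unsorted day 5 cells 63.3% with and 71.4% without, all with overlapping intervals. The median number of other assays above 0 was 15.5 in day 7 cells with Zeb2 and 17 in those without it.

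Klrg1 showed a similar split with Tcf7 at day 7. Tcf7 was above 0 in 3 of 33 unsorted cells with Klrg1 (9.09%, 1.92 to 24.3%) and 38 of 101 without it (37.6%, 28.2 to 47.8%), and was lower in both parts of the columns. Lgals1 went the other way, in 31 of 33 cells with Klrg1 (93.9%, 79.8 to 99.3%) and 69 of 101 without it (68.3%, 58.3 to 77.2%), a difference of -0.40 points when values were counted only above 12. At day 5, where Tcf7 was in 13.6% of cells with and 13.6% without Klrg1, neither gene differed by 20 points.

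At day 5 the share of cells with Ifngr1 was higher among those with Klrg1, and among those with Zeb2 with overlapping intervals. Ifngr1 was above 0 in 19 of 22 unsorted cells with Klrg1 (86.4%, 65.1 to 97.1%) and 69 of 132 without it (52.3%, 43.4 to 61.0%). The earlier columns held 15 of the 22 cells with Klrg1 and 62 of the 132 without it. There Ifngr1 was at 93.3% with Klrg1 and 71.0% without it, and in the later columns at 71.4% and 35.7%. By Zeb2, Ifngr1 was above 0 in 36 of 49 cells with it (73.5%, 58.9 to 85.1%) and 52 of 105 without it (49.5%, 39.6 to 59.5%). Unsorted day 5 cells with Klrg1 had a median of 20 other assays above 0 against 17 in those without it, and the part of this in the values was not tested.

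Further differences of at least 20 points had overlapping intervals. Cd8a was above 0 in 75% of unsorted day 5 cells with Prdm1 and 53.3% without it. Day 5 Tsle cells with Klrg1 had Klrc1, an inhibitory lectin-like receptor chain, in 43.8% against 19.1% of those without it, and Psmb7, a proteasome subunit, at the same 2 shares. Klrc1 was uneven, at 57.1% against 12% in the earlier columns and 33.3% against 27.3% in the later ones. Psmb7 was at 42.9% against 12% in the earlier and 44.4% against 27.3% in the later columns. Il2rb, a chain of the receptors for interleukin-2 and interleukin-15, was found in 16.3% of day 7 Tsle cells with Zeb2 and 37.0% without it, and Cd28 in 40% of day 7 Tsle cells with Klrg1 and 17.2% without it. Zfp281 was found in 59.1% of unsorted day 5 cells with Klrg1 and 34.8% without it, with a difference of -1.43 points in the later columns alone.

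**Figure D5:**
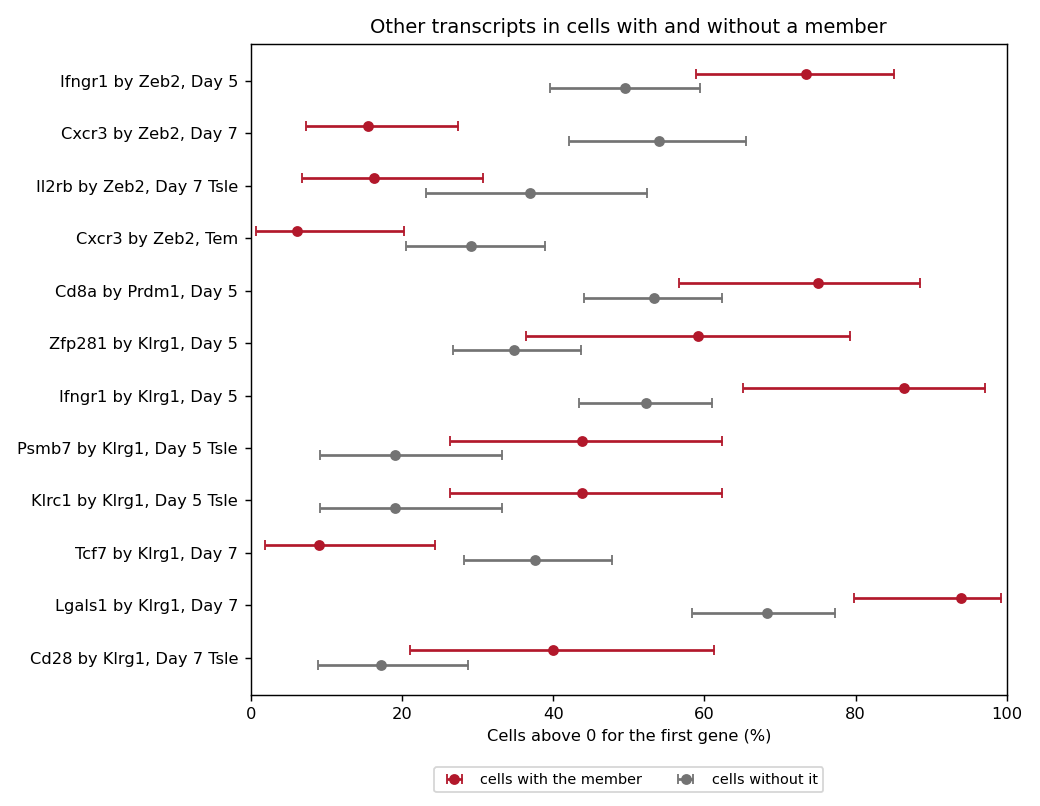
Share of cells above 0 (%) for the gene named first, in cells with the member named second and in cells without it, for the differences of at least 20 points named in the text that are not between 2 members. Points are shares and whiskers exact 95% intervals for counting error. Cxcr3 at day 7 is at 15.5% in cells with Zeb2 and 53.9% in cells without it.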

How the data were processed

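Single mouse CD8+ T cells were sorted into a mix for reverse transcription and preamplification, amplified for 18 cycles with pooled TaqMan assays, diluted 5-fold and run on Fluidigm arrays, per the labels' protocols. The deposited table holds log2 amounts (PCR cycles) of 95 assay rows, Il2 having 2, in 1449 cells named by population, which the labels call Ct and not normalized. Because 83.4% of values are 0 and the rest grow with abundance, they were read as 40 minus Ct, although the design had been written for Ct. Further processing by the authors is not given in the sources used here. By accession 93 rows matched RefSeq (GRCm38.p6), used for names. Columns of no sample numbered 0.

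Python 3.11.15, numpy 2.4.6 and scipy 1.17.1 gave shares with exact 95% intervals, medians, co-detection and Pearson's r, and matplotlib 3.10.9 the figures. No cell was removed. With 1 sample per population, 20 percentage points served as a size rule. It was tried only on simulated data with planted shifts well above it and the cell numbers of day 7 Tsle and Tmp (89 and 62). That cannot show how the rule treats differences near 20 points. Nor does it cover comparisons of fewer cells, such as the 22 unsorted day 5 cells with Klrg1. Precision is set by the 48 to 154 cells per population. Named are the members, for each the 3 genes of highest and 1 of lowest r, and 2 lists. The members and lists were chosen with earlier results of these data known. Alternatives were a limit of 12, at least 10 or 20 assays per cell, values centred on Actb with Gapdh, size rules of 10 and 30 points, a gene filter, Spearman's rho, leaving out naive cells, and the earlier or later columns alone. The comparisons of cells with and without a member, and their alternatives, were added after seeing the data. The counts of rows include genes that the text leaves unnamed.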

Additional observations from a re-analysis of the deposited data

How the results depend on the processing

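Zeb2 kept its direction and its 6 differences of at least 20 points with a limit of 12, with at least 10 assays per cell and in either part of the columns. Of 174 recomputed differences in share of the members, 165 moved by less than counting error and 9 by more. Of 174 recomputed shares of the members, 28 moved by more, as did 16 of 105 recomputed medians in detected cells. Zeb2 between day 5 Tsle and Tmp was 3.42 points (earlier) and 36.1 (later columns). Klrg1 at day 7 minus naive was 32.8 points (earlier) and 16.4 (later columns), and its day 7 Tsle minus Tmp difference 38.6 points in the earlier ones. With a limit of 12, Klrg1 differed by 1.42 points between day 5 Tsle and Tmp, 7.87 between day 7 Tsle and Tmp and -4.19 between Tem and day 7 Tsle. With at least 20 assays per cell, Klrg1 at day 5 minus day 3 was 21.5 points, Zeb2 with Prdm1 shared 16.9% of day 5 cells and Zeb2 with Klrg1 21.7% of day 7 cells. Zeb2 and Klrg1 shared 0% of day 5 Tsle and 2.25% of day 7 Tsle cells with a limit of 12, 7.69% of day 5 Tsle and 18.2% of day 7 Tsle cells in the earlier columns, and 0% of day 7 Tsle cells in the other part. The number of assay rows past the size rule, summed over 14 pairs, was 142 at 20 points, 301 at 10 and 74 at 30. Of 76 values for cells with against without a member, 2 reversed: Zfp281 by Klrg1 at day 5 (-1.43 points, later columns) and Lgals1 by Klrg1 at day 7 (-0.40, limit of 12). Of 24 likeness values, 6 left the closest 3 or the lowest place, 5 of them with Spearman's rho, which changed the closest gene of Zeb2 and of Prdm1. The cause of these shifts was not tested. Prdm1 kept its sign in 11 of 14 pairs (earlier columns) and 13 (later columns). The setting of at least 20 assays left under 20 cells in naive, distal, Tem and the sorted day 5 and 7 cells and gave no value there. No paired analysis was possible because each population is 1 sample. The number of cells limits shares in small populations, and Klrg1 values near the detection limit are the least secure.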
